A study of Rattus norvegicus with 30 samples.

Results

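Vascular connexins are the gap junction proteins of vessel walls, and 5 of their genes were followed here: Gja1, Gja4, Gja5, Gjc1 and Gjb2. They were chosen by gene name, and all 5 were found among the 30562 rows of the deposited table, 1 row each. The table holds RNA sequencing counts for 30 libraries of wild-type rat lung cells selected with beads for CD31, an endothelial surface protein. The animals had sham or Glenn surgery 3 weeks before and ate a control, a vitamin A-deficient (Vit A deficient) or a vitamin A-excess (Vit A excess) diet, which gives 6 groups of 5 libraries: sham control, sham deficient, sham excess, Glenn control, Glenn deficient and Glenn excess. Glenn surgery leads blood from a caval vein straight into a lung artery, so that venous blood of the liver does not reach that lung. The labels give no strain, age or sex, and do not say whether each library came from its own animal, so the p-values measure the spread between these libraries, which may be partly technical.

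Connexins assemble into hemichannels, and hemichannels of touching cells dock to form gap junctions, through which ions and small molecules pass from cell to cell. In vessels they couple endothelial cells with each other and with smooth muscle cells and pericytes. Gja4 (Cx37) and Gja5 (Cx40) are the main connexins of arterial endothelium, Gja1 (Cx43) is made by many cell types and in endothelium is known from branch points with disturbed flow, Gjc1 (Cx45) is known from smooth muscle, and Gjb2 (Cx26) from epithelia. In cultured endothelial cells, laminar flow raises Gja4 through Notch, and mice that lack both Gja4 and Gja5 have leaky, dilated vessels.

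The libraries held 22 to 77.6 M (mega) estimated counts, and levels are given as CPM, counts per M counts of the library after TMM scaling. Tests are edgeR quasi-likelihood tests across all 16171 genes with enough counts, with Benjamini-Hochberg adjustment, and "rose" or "fell" means an adjusted p under 0.05. All 5 connexins passed the filter on low counts. Library names fall in 2 number ranges, series A (22 libraries) and series B (8 libraries), and the fit held a term for the series. Both control-diet groups and the sham excess group were series A only. The level of the major histocompatibility gene RT1-CE16 split the libraries into 13 high and 17 low ones, and all of series B was high. All sham excess libraries were low, whereas each other group held both kinds. Comparisons with the sham excess group thus also differ in RT1-CE16 level. Endothelial markers were abundant: the summed CPM of Pecam1, Cdh5, Tie1 and Erg was 4115 to 5373 after sham and 3419 to 5162 after Glenn surgery. The cells were not endothelial alone, since 6 type 2 alveolar markers summed to 34800 to 59903 CPM in sham and 24750 to 56230 CPM in Glenn libraries.

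The stretches just upstream of the transcript start are shown for the 3 most deeply counted members, because these 3 went different ways after surgery. They are RefSeq sequences of build GRCr8, 250 bases each, 5′ to 3′ on the gene's own strand. The 5 members had 4 entries in the promoter table, and Gjc1 had none. Capitals mark matches, on either strand, to CACCC (the box bound by KLF factors), TGGGAA (the core bound by RBPJ, the Notch effector), TGANTCA (AP-1) or GGCGCC (bound by BMP SMADs). The motifs were picked after the values were known.
Gja1, chr20:36302314-36302563, plus strand: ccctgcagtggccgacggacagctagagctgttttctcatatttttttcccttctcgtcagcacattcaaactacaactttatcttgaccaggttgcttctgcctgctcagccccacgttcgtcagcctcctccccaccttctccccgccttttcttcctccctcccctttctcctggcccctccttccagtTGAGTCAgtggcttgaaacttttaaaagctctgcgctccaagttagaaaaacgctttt
Gja4, chr5:144920325-144920574, minus strand: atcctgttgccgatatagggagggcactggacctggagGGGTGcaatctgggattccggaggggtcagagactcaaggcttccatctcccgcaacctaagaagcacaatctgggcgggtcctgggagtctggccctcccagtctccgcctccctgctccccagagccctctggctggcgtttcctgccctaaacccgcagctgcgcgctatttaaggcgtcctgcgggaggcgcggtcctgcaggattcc
Gja5, chr2:187290977-187291226, plus strand: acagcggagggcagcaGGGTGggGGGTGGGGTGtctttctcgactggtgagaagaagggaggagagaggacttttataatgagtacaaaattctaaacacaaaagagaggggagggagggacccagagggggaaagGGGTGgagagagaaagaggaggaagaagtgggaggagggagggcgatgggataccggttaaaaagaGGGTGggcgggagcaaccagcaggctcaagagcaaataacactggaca

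The Gja1 stretch held 1 AP-1 match, 58 bases before the start, and none of the other motifs. AP-1 matches were found in 6.3% of the 33469 upstream stretches in the table. The Gja4 stretch held 1 CACCC match and the Gja5 stretch 5, of which 2 touch each other. The Gjb2 stretch, not shown, held 7. At least 1 CACCC match was present in 49.2% of all stretches and at least 5 in 0.7%. RBPJ and SMAD matches, found in 22.1% and 8.7% of all stretches, were absent from these 3 windows. A match describes the letters and does not show that a factor binds.

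Averaged over the 3 diets, 3 of the 5 connexins rose after Glenn surgery (Gja1, Gja5 and Gjb2), Gja4 fell, and Gjc1 did not pass the threshold. At this threshold 48.2% of all tested genes were called, 23.4% as higher and 24.7% as lower. By diet, 3 connexins were called on the control diet, 1 higher and 2 lower, against 24.9% of all genes (11.8% higher, 13.1% lower). On the deficient diet 2 were called, both higher, against 27.4% of all genes (13.7% higher, 13.7% lower). On the excess diet 3 were called, all higher, against 21.9% of all genes (11.6% higher, 10.4% lower). Gja1 alone was called in all 3 diets, and the share of all tested genes called in all 3 was not counted. The median of all log2 changes lay within 0.1 of 0 in each surgery comparison.

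Gja1, the most widely made vascular connexin, rose about 2.53-fold. Its level after sham surgery was 223, 180.0, 176, 233 and 194 CPM in replicates 1 to 5 on the control diet, 153, 215, 224, 199.5 and 163 CPM on the deficient diet, and 179, 179, 207, 187 and 246 CPM on the excess diet. After Glenn surgery it was 711, 433, 483, 422 and 532 CPM on the control diet, 395, 449, 444, 488 and 546 CPM on the deficient diet, and 544, 647, 535, 477 and 389.9 CPM on the excess diet. The lowest Glenn library (389.9 CPM) lay far above the highest sham library (246 CPM), so the 15 libraries of each kind did not overlap, as was the case for 5.83% of tested genes (3.1% higher after Glenn surgery, 2.73% lower). Within a diet the share of genes without overlap was 17.2% on the control (7.78% higher, 9.41% lower), 19.6% on the deficient (10% higher, 9.59% lower) and 16.3% for animals given excess vitamin A (8.59% higher, 7.75% lower). Glenn control replicate 1 was the highest of all 30 libraries.

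The log2 change of Gja1 was 1.34 (SE 0.09, edgeR adjusted p 1.26e-13) on average. By diet it was 1.36 (SE 0.14) on the control, 1.28 (SE 0.15) on the deficient and 1.38 (SE 0.16) on the excess diet, with edgeR adjusted p-values of 2.72e-08, 8.75e-08 and 1.2e-07. These 3 values differ by less than their standard errors, and the interaction of surgery with diet had an unadjusted p of 0.893. Within series A the averaged change was 1.40, and among RT1-CE16-low libraries 1.42. In series B a sham and a Glenn group are both present only on the deficient diet, where the 3 sham libraries were at 163 to 224 CPM and the 2 Glenn libraries at 488 and 546 CPM.

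**Figure D1:**
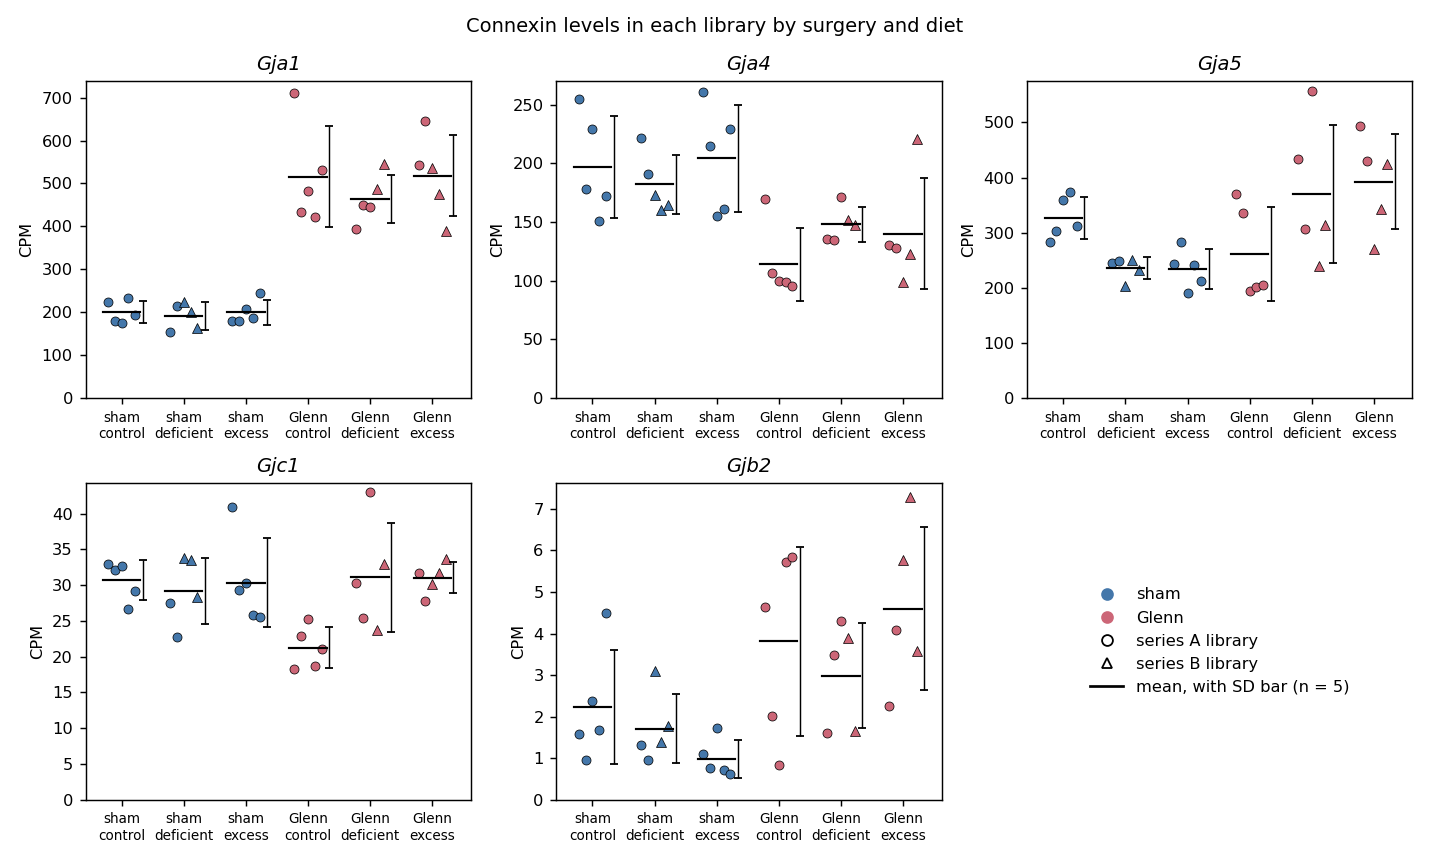
Level of each connexin (y axis, CPM, from 0) in the 30 libraries, by group (x axis); circles are series A and triangles series B, lines are means and bars SDs over 5 libraries. Gja1 is higher in every Glenn library (389.9 to 711 CPM) than in any sham library (153 to 246 CPM), and Gjc1 is lowest in the Glenn control group (18.3 to 25.2 CPM).

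Cells other than blood vessel endothelium also make Gja1, and markers of several cell types rose with it. Of 5 smooth muscle markers 5 rose, and their summed CPM was 96.6 to 248 after sham and 321 to 1403 after Glenn surgery. Of 6 pericyte markers 6 rose (91.5 to 154 against 187 to 477 CPM), and of 7 fibroblast markers 6 rose (1267 to 3247 against 1795 to 4692 CPM). Of 6 markers of lymphatic endothelium, which also carries CD31, 6 rose (1010 to 1942 against 2286 to 4957 CPM). Of 5 type 1 alveolar markers 3 rose and 2 fell (624 to 1015 against 637 to 1759 CPM). Markers of capillary endothelium mostly fell. Of 5 general capillary markers 0 rose and 4 fell (5611 to 8838 against 2430 to 5692 CPM). Of 5 markers of aerocytes, another capillary cell type, 1 rose and 3 fell (1007 to 1753 against 710 to 1108 CPM). Over all tested genes 23.4% rose and 24.7% fell. The part of these cells in the rise of Gja1 was not tested. In bulk RNA of sorted cells, a change in the number of cells of a type and a change in RNA per cell cannot be told apart. Group and series means were removed before Gja1 was correlated with the mean of a marker list across the 30 libraries. Pearson r was 0.37 for type 1 alveolar cells (rho 0.22, and r 0.11 without the 2 most distant libraries). For type 2 alveolar cells it was 0.23 (rho 0.28, and r 0.43 without the 2 most distant libraries). For the smooth muscle, pericyte, fibroblast and lymphatic lists it was between -0.20 (fibroblast) and 0.07 (lymphatic). These values describe libraries that share groups, series and depth.

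Gja4, a connexin of arterial endothelium, fell on average and, taken by diet, was called lower on the control diet alone. After sham surgery it stood at 255, 178, 229.7, 151 and 172 CPM on the control diet, 222, 191, 173, 160.0 and 165 CPM on the deficient diet, and 261, 214, 155, 161 and 229 CPM on the excess diet. After Glenn surgery it stood at 169.5, 106, 99.7, 98.7 and 95.3 CPM on the control diet, 136, 135, 172, 152 and 147 CPM on the deficient diet, and 130.3, 128, 98.8, 123 and 221 CPM on the excess diet. Of the 15 Glenn libraries, 11 lay below the lowest sham library, and 1, Glenn excess replicate 5, lay above the sham mean of 195 CPM. Sham and Glenn libraries overlapped in each diet.

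The averaged log2 change of Gja4 was -0.54 (SE 0.11, edgeR adjusted p 0.000312). It was -0.79 (SE 0.19, edgeR adjusted p 0.00295) on the control diet, -0.30 (SE 0.19, edgeR adjusted p 0.265) on the deficient diet and -0.52 (SE 0.22, edgeR adjusted p 0.0911) on the excess diet. The last 2 did not pass the threshold, and their 95% intervals ran from -0.68 to 0.08 and from -0.95 to -0.09. The interaction of surgery with diet was not called for Gja4 (edgeR adjusted p 0.995, unadjusted p 0.218). The fall on the excess diet was called in 5 of 41 alternatives, most firmly without Glenn excess replicate 5 (-0.69, edgeR adjusted p 0.00797). They include fits with no series term (-0.54, edgeR adjusted p 0.0328) and with RT1-CE16 and sex (-0.52, edgeR adjusted p 0.0198), and limma voom (-0.55, adjusted p 0.0157). On the deficient diet it was called in 1 of 41, a fit of those groups alone (-0.31, edgeR adjusted p 0.0243). On the control diet the change was -0.78 among RT1-CE16-low libraries, where 2 sham and 3 Glenn libraries were left and the threshold was missed (edgeR adjusted p 0.0628). Within series A the averaged change was -0.64.

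The ratio of Gja1 to Gja4 in CPM within a library was 0.69 to 1.55 after sham (median 1.07) and 1.76 to 5.58 after Glenn surgery (median 4.07). The operations did not overlap in the ratio, as they did not in Gja1 alone, and the gap between them was narrower than for Gja1. The ratio is not a ratio of molecules, since CPM is not corrected for transcript length, and only its change is read here. The Glenn library nearest to sham was again excess replicate 5, at 1.76.

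**Figure D2:**
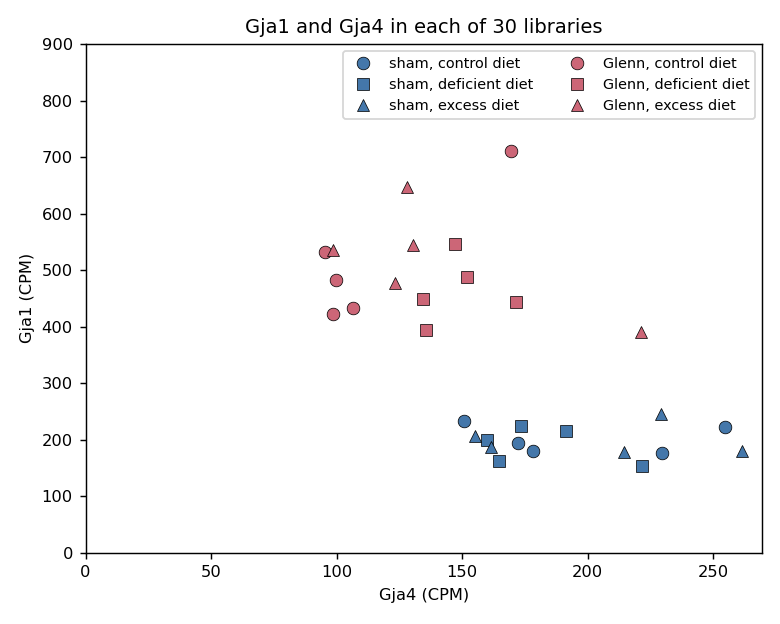
Gja1 (y axis, CPM) against Gja4 (x axis, CPM) in the 30 libraries, 1 point each, with colour for surgery and shape for diet. Sham libraries lie low and to the right and Glenn libraries high, with Glenn excess replicate 5 (221 CPM of Gja4) farthest to the right among the latter.

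Gja5, the other arterial connexin, rose on the deficient and excess diets and missed the threshold on the control diet. After sham surgery it was at 284, 303, 359, 374 and 312 CPM on the control diet, 246, 249, 203, 250.2 and 232 CPM on the deficient diet, and 243, 284, 190.0, 242 and 212 CPM on the excess diet. After Glenn surgery it was at 369, 336.5, 194, 201 and 205 CPM on the control diet, 434, 307, 556, 239.8 and 313 CPM on the deficient diet, and 493, 430.4, 270.0, 344 and 424 CPM on the excess diet. On the control diet 3 Glenn libraries were below all sham libraries, and on each of the other diets 4 of the 5 Glenn libraries were above all sham libraries.

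The log2 change of Gja5 with surgery was -0.32 (SE 0.18, edgeR adjusted p 0.199) on the control diet, 0.54 (SE 0.18, edgeR adjusted p 0.0284) on the deficient diet and 0.97 (SE 0.20, edgeR adjusted p 0.000591) on the excess diet. Averaged over diets it was 0.39 (SE 0.10, edgeR adjusted p 0.00244), a mean of unlike values. The interaction of surgery with diet had an unadjusted p of 0.000119 and an edgeR adjusted p of 0.245, so the difference between diets did not pass the threshold over all genes, of which 0.00618% did. The interaction was past the threshold with DESeq2 (adjusted p 0.00372), limma voom (adjusted p 0.0215) and edgeR without Glenn control replicate 1 (adjusted p 0.0244). Among RT1-CE16-low libraries it was not (edgeR adjusted p 0.931), and the control-diet change there was 0.04.

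The call for Gja5 on the deficient diet also rested on few libraries. On the deficient diet the change stayed positive without any 1 library (0.41 to 0.65). The call was lost without Glenn deficient replicate 1, 3 or 5 or sham deficient replicate 1, 2 or 3, with edgeR adjusted p-values of 0.0502 to 0.094. On the control diet limma voom (-0.51, adjusted p 0.0199) and edgeR without Glenn control replicate 1 (-0.48, adjusted p 0.0475) called a fall. On the excess diet the rise was called under every alternative tried (0.74 to 1.04).

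Compared between diets, Gja5 differed in 1 of 6 comparisons. After Glenn surgery it was higher on the excess (392 ± 86.6 CPM) than on the control diet (261 ± 84.8 CPM, SD, n = 5 libraries each). The log2 difference was 0.81 with an SE of 0.20 (edgeR adjusted p 0.0344). In that comparison 1.47% of all genes were called, 0.89% as higher, and Gja5 was the only connexin among them. The call was lost with no series term (0.59, edgeR adjusted p 0.236), within series A (0.82, 0.0747) and with RT1-CE16 in place of the series (0.65, 0.0905). It was also lost without Glenn control replicate 3, 4 or 5 or Glenn excess replicate 1, 2, 4 or 5, where the change stayed between 0.70 and 0.84. The deficient diet gave 0.63 against the control diet after Glenn surgery (SE 0.19, edgeR adjusted p 0.271). After sham surgery the excess diet gave -0.48 (SE 0.18, edgeR adjusted p 0.278, unadjusted p 0.0117).

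**Figure D3:**
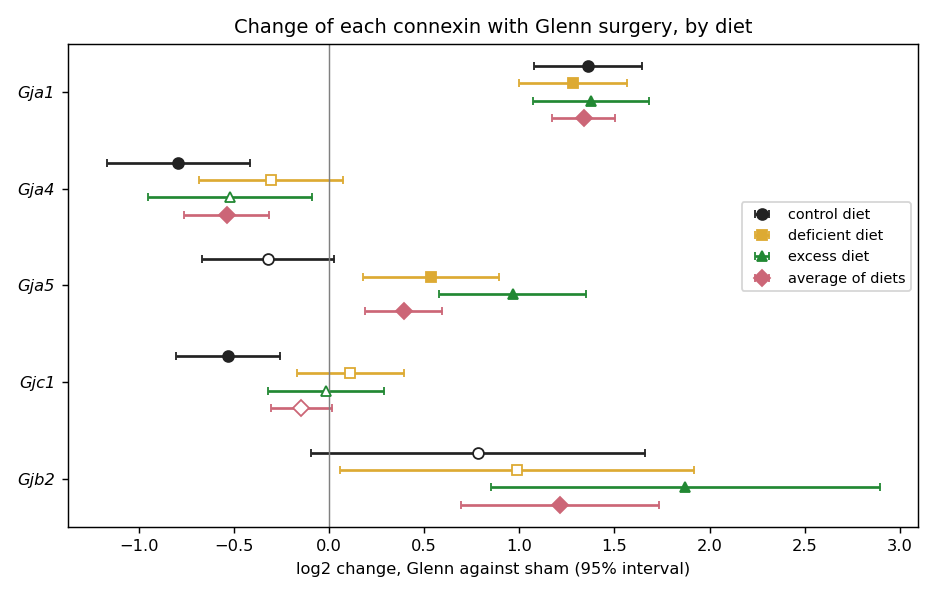
log2 change of each connexin with Glenn surgery (x axis, with 95% interval from the edgeR fit) by diet and on average; filled symbols passed an adjusted p of 0.05 and open ones did not. The Gja1 values lie together between 1.28 and 1.38, while those of Gja5 run from -0.32 to 0.97.

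Other arterial endothelial markers did not all move as Gja4 or Gja5 did. Of 6 such genes 4 rose and 2 fell after Glenn surgery on average, with a summed level of 862 to 1176 CPM in sham and 997 to 1564 CPM in Glenn libraries. Bmx rose by 1.32, Hey1 by 0.39, Sox17 by 0.37 and Dll4 by 0.37 on the log2 scale, whereas Efnb2 (-0.70) and Cxcl12 (-0.81) fell. Gja5 is also made by heart muscle, which in rodents extends into the lung veins. Of 5 heart muscle markers tested 3 rose and none fell, with a median log2 change of 1.38. Over all tested genes 23.4% rose and 24.7% fell. The highest of these markers was Actc1, at a mean of 1.87 CPM in sham and 6.71 CPM in Glenn libraries. Myl7 and Tnni3 were not called (edgeR adjusted p 0.422 and 0.108). The 6 listed summed to 1.17 to 6.84 CPM in sham and 4.81 to 24.5 CPM in Glenn libraries, with the atrial gene Nppa under 0.1 CPM on average, and the part of such cells in the level of Gja5 was not tested. After removal of group and series means, Gja5 followed the mean of the arterial markers (Pearson r 0.67, Spearman rho 0.66, and r 0.60 without the 2 most distant libraries, over 30 libraries that share groups and series). Gja4 and Gja5 followed each other less (r 0.42, rho 0.40, and r 0.20 without 2 libraries). Gja4 hardly followed the arterial markers (r 0.14, rho 0.13, and r -0.04 without 2 libraries). The arterial list was not the only one for Gja5: r was 0.55 with endothelial, 0.46 with venous and 0.395 with general capillary markers. For Gja4 r was 0.56 with endothelial markers (rho 0.485, and r 0.43 without the 2 most distant libraries). It was 0.37 with general capillary, -0.18 with venous and -0.38 with aerocyte markers. The part of these cells in the fall of Gja4 was not tested. Against the type 2 alveolar and heart muscle markers r of Gja5 was -0.48 and -0.35.

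Gjc1, a connexin of smooth muscle and pericytes, fell on the control diet and did not pass the threshold on the others. After sham surgery it was at 33.0, 32.0, 32.7, 26.7 and 29.1 CPM on the control diet, 27.5, 22.8, 33.7, 33.4 and 28.4 CPM on the deficient diet, and 40.9, 29.3, 30.3, 25.8 and 25.5 CPM on the excess diet. After Glenn surgery it was at 18.3, 22.9, 25.2, 18.7 and 21.1 CPM on the control diet, 30.2, 25.4, 43.1, 23.7 and 33.0 CPM on the deficient diet, and 31.6, 27.8, 30.2, 31.7 and 33.6 CPM on the excess diet. On the control diet all 5 Glenn libraries were below all 5 sham libraries, as for 9.41% of tested genes in that direction, and on the other diets the groups overlapped.

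The log2 change of Gjc1 was -0.53 (SE 0.14, edgeR adjusted p 0.00524) on the control diet. It was 0.11 (SE 0.14, edgeR adjusted p 0.62) on the deficient and -0.02 (SE 0.16, edgeR adjusted p 0.959) on the excess diet, with 95% intervals of -0.17 to 0.39 and -0.32 to 0.29. The averaged change of -0.14 missed the threshold (SE 0.08, edgeR adjusted p 0.145), and so did the interaction (unadjusted p 0.00706, edgeR adjusted p 0.681). Among RT1-CE16-low libraries the control-diet change was of the same size (-0.54) and missed the threshold (edgeR adjusted p 0.147). Without Glenn deficient replicate 3 the averaged change was -0.21 and passed it (edgeR adjusted p 0.0192). That library had the highest Gjc1 level of all and the largest sum of smooth muscle markers (1403 CPM).

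Smooth muscle and pericyte markers rose on average, and Gjc1, which these cells make, was not called. In the Glenn control group, where Gjc1 was lowest, smooth muscle markers summed to 396 to 698 CPM and pericyte markers to 187 to 241 CPM. The sham control group had 142 to 248 and 127 to 154 CPM. After removal of group and series means Gjc1 followed the smooth muscle markers with r 0.38 (rho 0.29, and r 0.25 without the 2 most distant libraries). It went against the type 1 alveolar markers with r -0.55 (rho -0.61, and r -0.58). The part of these cells in the level of Gjc1 was not tested. After Glenn surgery Gjc1 was 0.52 (deficient diet) and 0.50 (excess diet) above the control diet on the log2 scale. Both missed the threshold (SE 0.15 and 0.16, unadjusted p 0.00131 and 0.00342, edgeR adjusted p 0.265 and 0.103).

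Gjb2, a connexin of epithelia, was scarce in these cells, at 21 to 336 estimated counts a library, and rose on average. After sham surgery it was at 1.59, 0.954, 2.38, 1.68 and 4.50 CPM on the control diet, 1.32, 0.962, 3.11, 1.40 and 1.77 CPM on the deficient diet, and 1.09, 0.765, 1.72, 0.722 and 0.614 CPM on the excess diet. After Glenn surgery it was at 4.64, 2.01, 0.837, 5.73 and 5.84 CPM on the control diet, 1.62, 3.48, 4.30, 3.88 and 1.65 CPM on the deficient diet, and 2.26, 4.08, 5.76, 7.29 and 3.57 CPM on the excess diet. The spread within groups was wide, and only on the excess diet did all 5 Glenn libraries lie above all 5 sham libraries (8.59% of tested genes did so there).

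The averaged log2 change of Gjb2 was 1.21 (SE 0.27, edgeR adjusted p 0.000402). It was 0.78 (SE 0.45, edgeR adjusted p 0.218) on the control diet, 0.99 (SE 0.47, edgeR adjusted p 0.128) on the deficient diet and 1.87 (SE 0.52, edgeR adjusted p 0.00944) on the excess diet. The interaction did not pass the threshold (unadjusted p 0.285, edgeR adjusted p 0.999). On the excess diet the change within series A was 1.69 (edgeR adjusted p 0.0628), and on the deficient diet a fit with RT1-CE16 gave 1.09 (edgeR adjusted p 0.0493). Type 1 alveolar markers, of which 3 of 5 rose and 2 fell, summed to 624 to 1015 CPM in sham and 637 to 1759 CPM in Glenn libraries. All 6 type 2 alveolar markers fell, where 23.4% of all tested genes rose and 24.7% fell. After removal of group and series means Gjb2 followed the type 1 markers (r 0.48, rho 0.51, and r 0.45 without the 2 most distant libraries). It also followed the 4 platelet markers (r 0.57, rho 0.58 and r 0.55), all of which fell after surgery. The part of these cells in the rise of Gjb2 was not tested.

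Of the 6 diet comparisons within an operation, 5 gave no connexin past the threshold in edgeR. At an unadjusted p under 0.05 there were 0, 2 and 0 of the 5 for deficient against control, excess against control and excess against deficient after sham. After Glenn surgery there were 2, 2 and 0. Of all tested genes 5.22%, 11.1% and 5.28% had such a p after sham and 9.88%, 13.9% and 5.18% after Glenn surgery. The 2 in excess against control after sham were Gja5 and Gjb2 (-1.16, SE 0.47), and after Glenn surgery they were Gja5 and Gjc1 in both comparisons with the control diet. The shares of all genes with an edgeR adjusted p under 0.05 in these 6 comparisons were 0%, 0.241%, 0.0124%, 0.00618%, 1.47% and 0%, in that order, and in excess against control after sham 0.0866% were lower. DESeq2 called Gja5 alone, and limma voom called Gja5 also for deficient against control after Glenn surgery (0.76, adjusted p 0.0484).

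Libraries in which a member was high within its group and series were also high for certain other genes, found among 12630 genes by the Pearson correlation of deviations from group and series means over the 30 libraries. For Gja5 these were Fbln2 (r 0.83), Tnfaip2 (0.83) and Il33 (0.80), of which Fbln2 and Tnfaip2 rose with surgery on average and Il33 fell. For Gja4 they were Ces2b (0.85), Pdlim3 (0.85) and Igfbp4 (0.83), with Pdlim3 falling by 1.46 and Igfbp4 rising by 2.68 on the log2 scale. For Gjc1 they were Mustn1 (0.70), Cald1 (0.68), a gene of contractile cells, and Pak1ip1 (0.67). For Gja1 they were Gsr (0.70), Slc30a4 (0.70) and Galnt1 (0.70), and for Gjb2 they were Mkrn1 (0.75), Arhgap22 (0.73) and Eml6 (0.72). These are the highest of many correlations over libraries that share groups and depth, and some rest partly on few libraries: r for Gjc1 and Cald1 was 0.54 without the 2 most distant libraries.

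Among the other connexins, 15 of 16 listed genes were in the table and 8 had enough counts for the test, all at low levels. Averaged over diets, 3 of the 8 rose (Gja3, Gjb6 and Gjd3) and none fell, against 23.4% and 24.7% of all tested genes. The median log2 change of the 8 was 0.11. Gja3 (Cx46), known from the lens, went from 0.0872 ± 0.0828 CPM in sham libraries to 0.746 ± 0.333 CPM in Glenn libraries (SD, n = 15 libraries each), with 0 to 11 and 13 to 59 counts a library. Its log2 change was 3.04 with an SE of 0.39 (edgeR adjusted p 1.92e-07). Gjb6 (log2 change 1.18, SE 0.29, edgeR adjusted p 0.00126) went from a mean of 0.455 to 1.00 CPM. Gjd3 (3.99-fold, SE 0.57 on the log2 scale, edgeR adjusted p 0.00488) went from 0.0813 to 0.325 CPM, with 0 to 11 and 0 to 23 counts a library. Gjd3 was not called on the control, deficient or excess diet taken singly (edgeR adjusted p 0.233, 0.217 and 0.0741). Gja3 and Gjd3 passed the filter on low counts only through Glenn libraries, so their calls are not independent of that filter. Gjb1 (-0.21), Gjb5 (0.02) and Gjc3 (-0.95) did not pass the threshold. The pannexins Panx1 (0.04) and Panx2 (0.11), which form channels in the membrane of single cells, missed it, and Panx3 had too few counts.

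Of 15 genes for proteins that bind, move, phosphorylate or degrade connexins, 4 rose and 4 fell on average, with a median log2 change of -0.03. Over all tested genes 23.4% rose and 24.7% fell in this contrast, so that the list stood near the background. Dbn1 (drebrin), which ties Gja1 to actin, rose by 1.46 (SE 0.07, edgeR adjusted p 9.61e-16), from 16.3 ± 1.93 to 45.0 ± 8.73 CPM. Ccn3, a secreted protein that binds Gja1, rose by 1.22 (SE 0.11, edgeR adjusted p 2.1e-10), from 37.5 ± 11.5 to 89.3 ± 23.4 CPM. Smurf2, a ubiquitin ligase, fell by 1.04 (SE 0.05, edgeR adjusted p 5.8e-16), from 153 ± 11.3 to 73.3 ± 9.33 CPM (SD, n = 15 libraries each). Tjp1 (ZO-1), the main scaffold of gap junction plaques, was at 312 ± 31.2 and 333 ± 41.5 CPM and was not called (0.09, edgeR adjusted p 0.241).

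Of 17 genes of flow, Notch and ALK1 signalling, which are known to act on arterial connexins, 7 rose and 7 fell on average, against 23.4% and 24.7% of all tested genes, and the median log2 change was -0.02. The largest changes were those of Eng, a co-receptor for BMP9 (-1.45), the receptors Acvrl1 (-1.39) and Bmpr2 (-1.31), and the transcription factor Foxc1 (1.23), with SEs of 0.07, 0.07, 0.06 and 0.13. Of the flow-induced factors, Klf2 fell by 1.16 and Klf4 by 0.72. Of the Notch genes, Dll4, Jag1, Notch4 and Hey1 rose and Notch1 fell by 0.28 (edgeR adjusted p 0.00683). Rbpj (-0.04, edgeR adjusted p 0.516) and Hey2 (0.16, edgeR adjusted p 0.327) were not called. Cdkn1b, the cell cycle inhibitor placed downstream of Gja4 in cultured endothelium, fell by 0.28 (SE 0.05, edgeR adjusted p 2.36e-05), from 39.7 ± 3.09 to 32.7 ± 3.66 CPM (SD, n = 15 libraries each). After Glenn surgery Acvrl1 (0.53) and Eng (0.52) were higher with excess than with control diet (edgeR adjusted p 0.0344 and 0.0389). The other 15 of the 17 were not called there, and 0.89% of all tested genes were called higher. Calls over all genes in that comparison fell from 237 to 2 without Glenn excess replicate 1.

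**Figure D4:**
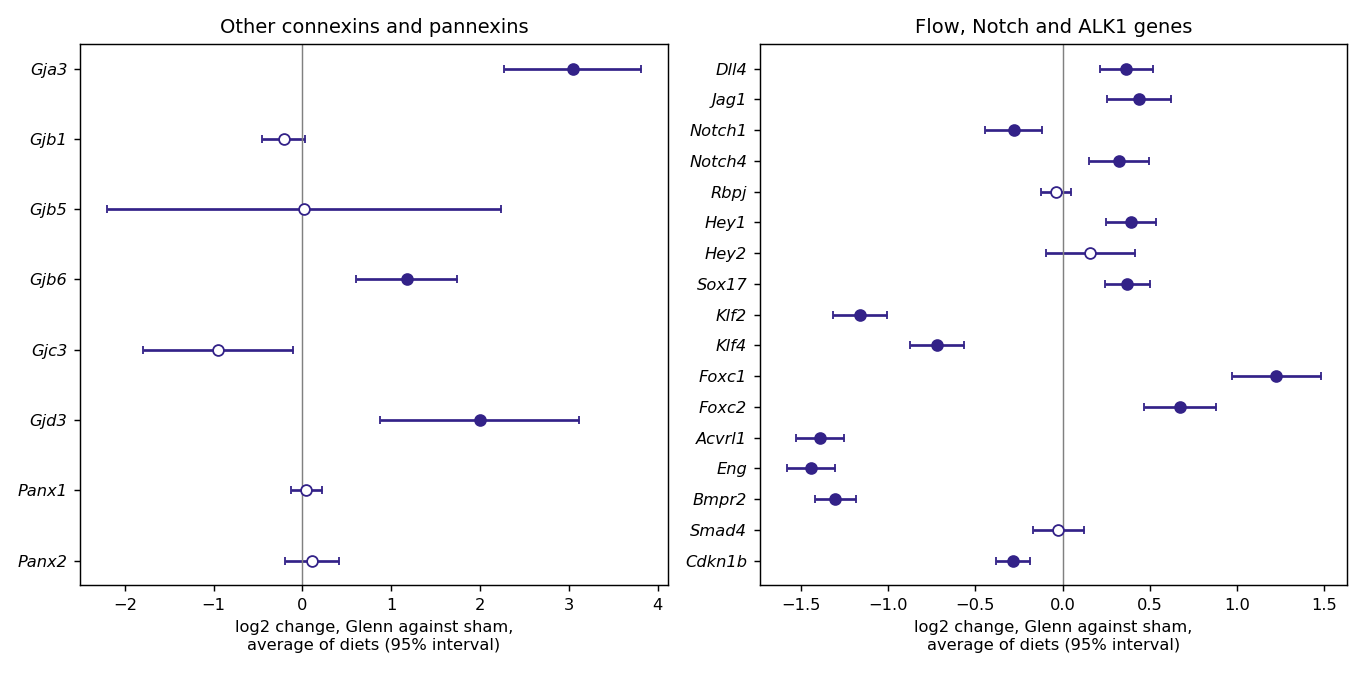
log2 change with Glenn surgery averaged over diets (x axis, with 95% interval from the edgeR fit) for 8 of the other connexin and pannexin genes tested (left) and the 17 flow, Notch and ALK1 genes (right); filled symbols passed an adjusted p of 0.05. Acvrl1, Eng, Bmpr2 and Klf2 lie below -1, and the low-count gene Gja3 lies at 3.04.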

How the data were processed

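The authors deposited a table of estimated counts per gene and library, made with Salmon per the submitters' processing notes, which also name FastQC, Trim Galore, Picard and STAR and the builds mRatBN7.2 and rn7; versions, annotation release and strand setting are not given in the sources used here. The labels' protocols name PureLink columns for RNA and SMART-Seq low-input chemistry for the libraries. All 30 columns were used (0 left out). The estimated counts (13.6% not whole) were rounded. edgeR 4.0.16 kept 16171 genes (filterByExpr, minimum count 10, minimum total 15), scaled by TMM (0.94 to 1.06) and fitted 6 group means and the library series (glmQLFit, robust). Intervals are the log2 change ± 1.96 SE. Alternatives used DESeq2 1.42.0, limma 3.58.1, other terms and fewer libraries; sex, which the labels do not give, was read from Ddx3y (male above 10 CPM, 13 male and 17 female libraries); R was 4.3.3. The fit was tested on simulated data. Samples of a group differed by far more than sampling noise (chi-square per degree of freedom 21.2 or more over 60 pairs). All members are named; of the partner list the 3 and of the signalling list the 4 largest called changes are named, Klf2, Klf4, Tjp1, the Notch genes and Cdkn1b being added after their values were seen. Members and lists were chosen with earlier results of these data known. Values of 2 genes of the other connexins are not reported here.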

Additional observations from a re-analysis of the deposited data

Results flagged for a closer look

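In 2 of 30 sets of 5 libraries (5 connexins in 6 groups), 1 library stood apart from the other 4 by Dixon's test at the 95% level, where chance alone gives about 1.5. Both concern Gja4. Glenn control replicate 1 was at 169.5 CPM against 95.3 to 106 CPM in the other 4, a gap of 0.85 of the whole range. Glenn excess replicate 5 was at 221 CPM against 98.8 to 130.3 CPM, a gap of 0.743 of the range.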

How the results depend on the processing

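Counts of connexins called are given against those of the edgeR fit with the series term. With 1 library left out at a time they were 3 to 4 (3) for surgery on the control diet, 1 to 2 (2) on the deficient diet, 3 to 4 (3) on the excess diet and 4 to 5 (4) on average. They were 0 to 1 (0) for deficient against control after Glenn surgery, 0 to 1 (1) for excess against control after Glenn surgery and 0 to 1 (0) for the interaction. For control-diet surgery the count was 1 in the RT1-CE16-low subset, an alternative chosen after seeing the data. For excess against control after Glenn surgery it was 0 with no series term, series A only, the RT1-CE16 term, that term with sex, no filter, the replicate block, RT1-CE16-low libraries and only the groups compared. For deficient against control after Glenn surgery limma voom gave 1, and for the interaction DESeq2 and limma voom gave 1 each. Sign changes were those of Gja5 on the control diet (0.043 in the RT1-CE16-low subset) and of Gjc1, whose change with surgery on the excess diet was 0.029 with no series term, 0.039 with the RT1-CE16 term, 0.037 with that term and sex, 0.032 with limma voom and -0.08 to 0.115 without 1 library, and on the deficient diet -0.032 to 0.242 without 1 library. Gja1, Gja4, Gja5 and Gjb2 were called in the averaged contrast under all 40 alternatives run. Counts of all genes called moved by over 1.5 times from 4023 to 1563 (control diet, RT1-CE16-low), from 4423 to 2398 (deficient, RT1-CE16-low) and from 3549 to 1960 (excess, only its groups). For excess against control they moved from 39 to between 0 and 210 after sham and from 237 to between 2 and 557 after Glenn surgery. For deficient against control they moved from 0 to at most 26 after sham and from 1 to at most 63 after Glenn surgery, for excess against deficient from 2 to between 0 and 12 and from 0 to at most 18, and for the interaction from 1 to between 0 and 35. With the replicate block 34 genes were called for excess against control after Glenn surgery, Gja5 gave 0.765 there (edgeR adjusted p 0.161) and Gja4 -0.636 for surgery on the excess diet (edgeR adjusted p 0.0283). A fit of only the groups compared gives no value for the average or the interaction. Replicate numbers were not taken as pairs in the main fit. Of 75 same-number correlations 38 were above 0.1, and the lowest was -0.246. The same-number median was 0.104 against -0.024 for different numbers, and 15 of 30 libraries were most like 1 of their own number. Libraries of the same number were thus somewhat more alike, which the main fit left out. The numbers track sex and RT1-CE16 in part: all 6 libraries of replicate 1 were male, all 6 of replicate 2 female, and both sets RT1-CE16-low. The cause of these shifts was not tested. Gjb2, at 21 to 336 counts, is the member most limited by depth.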

Other observations

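The summed level of the 5 connexins, dominated by Gja1, Gja4 and Gja5, was 585 to 799.5 CPM after sham surgery (median 694) and 746 to 1273 CPM after Glenn surgery (median 982). The ratio of Gja5 to Gja4 in CPM was 0.93 to 2.49 after sham (median 1.32) and 1.58 to 3.79 after Glenn surgery (median 2.28), with overlap. On the control diet it was 1.73 ± 0.497 and 2.29 ± 0.494, on the deficient diet 1.31 ± 0.183 and 2.49 ± 0.719, and on the excess diet 1.18 ± 0.25 and 2.92 ± 0.708 (SD, n = 5 libraries each, sham then Glenn).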
